A study of Homo sapiens with 6 samples.

Results

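Reads on the endogenous retroviral copies named HERVIP10 and LTR10 were examined in the RNA of HaCaT, a line of immortalised skin keratinocytes. These are the 3296 copies whose repeat name starts with HERVIP10 or is LTR10 followed by a letter, among 771683 repeat copies in the table. They carry 12 names, of which 9 are LTR10 names with 2282 copies and 3 are HERVIP10 names with 1014 copies. The 6 libraries came from 3 control dishes and from 3 dishes irradiated with ultraviolet B (UVB), for which the labels give 50 mJ without an area. Per the labels, the cells were cultured for 24 h after irradiation. Both groups were the same line with no other treatment in the labels, so the data describe 1 cell line. Whether the dishes are independent cultures is not stated, and p-values cover no more than the spread among these dishes, which may be technical. The study's title links ultraviolet light, endogenous retroviruses and RIG-I, which senses viral RNA in the cytoplasm. Values with ± and no other mark are means ± SD over the 3 libraries of a group (n = 3).

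An endogenous retrovirus is the remnant of a retrovirus that entered the germ line. A full copy holds an internal part, with the former gag, pol and env genes, between a pair of long terminal repeats (LTRs), which carry the promoter and the polyadenylation signal. Recombination between the LTRs often leaves a solitary LTR behind. HERVIP10 names the internal part and LTR10 the LTRs of one group of class I retroviruses. As background, LTR10 copies are known to be bound in epithelial tumour cells by AP-1, a transcription factor made of JUN and FOS family proteins.

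Most of these copies had no reads. Of the 3296 copies, 771 (23.4%) had at least 1 read in any of the 6 libraries and 2525 had none, against 14.3% with a read among all repeat copies. RPM are reads on a copy or set of copies for every 1000000 assigned reads. A count of 0 in a library was taken to allow an expected count of up to about 3 reads, or 0.0339 to 0.0453 RPM. This is an approximate limit and not a maximum. In all, 119 copies had reads in every library, and 112 had a mean of at least 10 reads. The copy with the most reads held 17.6% of all reads on the group, and the 112 held 87.1%. The libraries held 66272443 to 88484020 reads assigned to genes and repeats together; whether 1 unit of the recovered counts is 1 read or 1 fragment is not stated. Reads on all repeat copies made up 0.858% ± 0.0893 of these in the controls and 0.771% ± 0.0208 after UVB. HERVIP10 and LTR10 copies together took 151.6 ± 16.6 RPM in the controls and 150.4 ± 0.223 after UVB. The control libraries measured 139.7, 170.6 and 144.6 and the UVB libraries 150.3, 150.3 and 150.7, so the UVB values lay inside the range of the controls.

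Levels of the names were compared per length, as FPKM over the summed bases of all copies of a name. LTR10B1 and HERVIP10B3-int stood highest, at means over the 6 libraries of 0.232 and 0.225 FPKM, and their ranges over libraries overlapped. LTR10A and LTR10C followed at 0.0624 and 0.0569 FPKM, with overlapping ranges, and lay below the first pair in every library. LTR10E and HERVIP10FH-int measured 0.0372 and 0.0343 FPKM. The other names lay between 0.0108 FPKM for LTR10B and 0.0262 FPKM for LTR10G, each with a range that overlapped its neighbours in this order. HERVIP10F-int, an internal name with 327 copies, was among the lowest at 0.0133 FPKM. In summed RPM, which also grows with the number and length of copies, HERVIP10B3-int alone took 78.4 ± 9.20 in the controls and 85.7 ± 1.98 after UVB.

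**Figure D1:**
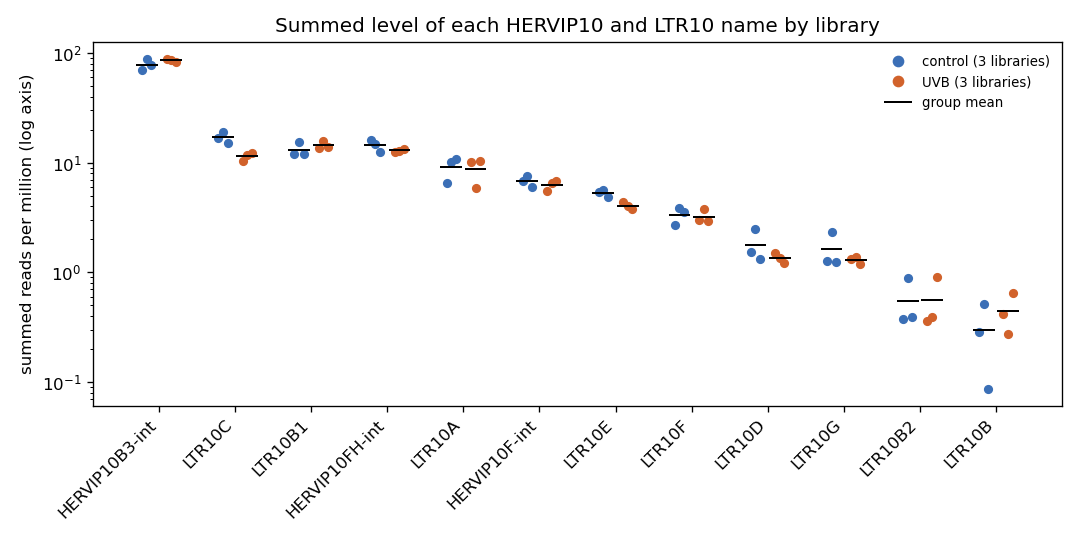
RPM (log axis) summed over all copies of each of the 12 names, as 3 control and 3 UVB libraries (points) with the group mean (bars). LTR10C and LTR10E have all UVB points below all control points, and the groups of the other 10 names overlap.

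LTR10C, the name with the most copies here (539), was lower after UVB, and it was the single name of the 12 that passed the test. Its copies summed to 16.7, 19.0 and 15.2 RPM in the controls and to 10.4, 11.8 and 12.2 after UVB. All 3 UVB libraries lay below all controls. This amounted to a limma log2 fold change of -0.56 ± 0.14 (SE, adjusted p = 0.0115), and the edgeR count test gave -0.62 (adjusted p = 0.00348). Over all 577 names tested, 1.21% were lower in limma and none was higher, and 3.64% were lower with edgeR. No name was higher with edgeR either. In limma 98 names had an unadjusted p under 0.05, or 17%, and among the 12 there were 2 such names, LTR10C and LTR10E. The call of LTR10C was lost without UVB replicate 1 or 2 (adjusted p = 0.241 and 0.0584) and without control replicate 1 or 2 (adjusted p = 0.118 and 0.0867). The number of lower names over the table moved from 7 to 4, 3, 23 and 4 without control replicate 1, 2 or 3 or UVB replicate 2.

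LTR10E showed the other separation of the groups without passing the test. It measured 5.35, 5.64 and 4.85 RPM in the controls and 4.34, 4.001 and 3.74 after UVB, with a log2 fold change of -0.38 ± 0.19 (SE, limma adjusted p = 0.274). Among all names tested 23.7% had every UVB library below every control and 1.56% had every UVB library above. Of the 12 names, 9 had a fold change below 0, and so had 82% of all names tested. The median log2 fold change was -0.08 over the 12 names and -0.18 over all 577. The remaining 10 names had adjusted p-values from 0.406 to 0.990. LTR10B had the highest log2 fold change of them, 0.56 ± 0.39 (SE), from 0.288, 0.513 and 0.0861 RPM in the controls and 0.414, 0.271 and 0.643 RPM after UVB. Its groups overlapped, and the value ran from 0.096 without control replicate 3 to 0.96 without control replicate 2 and was 0.16 with a pseudocount of 1.

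The reads on this group of repeats came largely from one place in the numbering of the copies. Each identifier in the table ends in a running number, and positions in the genome were not analysed here. Successive numbers tended to join LTRs to internal parts: 42.1% of HERVIP10 copies had an LTR10 copy at the next lower or higher number, against 0.436% of the copies of all other names. Members at successive numbers are called a run here, and there were 1927 runs, of which 1383 held a single copy and 128 held at least 5. One run of 9 copies, numbers 364909 to 364917, opened with an LTR10B1, held 7 HERVIP10B3-int pieces and closed with another LTR10B1. That is the order LTR, internal part, LTR of a provirus. The first number of the identifier, whose meaning is not stated, differs between the opening LTR10B1 (2386479) and the closing one (2386481). This run took 56.7% of all reads on the 3296 copies. It held 89.1% of the HERVIP10B3-int reads and 89.6% of the LTR10B1 reads, so the levels of these 2 names are mainly levels of the run. How reads that match several near-identical copies were assigned is not given in the sources used here.

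All pieces of the 9-copy run were read in every library, at levels that differed among them. The 9 pieces, 4894 internal and 910 LTR bases, had mean levels over the 6 libraries of 10.4 to 19.1 FPKM. The longest piece, copy 364911 of 1756 bases, measured 12.3, 15.97 and 14.0 FPKM in the controls and 16.5, 16.1 and 15.7 FPKM after UVB. The first LTR, copy 364909, measured 11.3, 13.1 and 8.68 FPKM in the controls and 11.3, 14.2 and 11.6 FPKM after UVB. The last LTR, copy 364917, measured 12.0, 15.9 and 14.7 FPKM and then 15.7, 17.5 and 16.5 FPKM. The LTRs together stood at 0.909 ± 0.0591 times the internal level in the controls and 0.904 ± 0.0758 times after UVB, so the ratio moved by less than its spread. The copy before the run, an MLT1J (number 364908), measured 1.18 ± 0.202 FPKM in the controls. The copy after it, an MLT1F2 of 45 bases (number 364918), measured 16.97 ± 0.531 FPKM in the controls and 20.4 ± 3.34 FPKM after UVB, as high as the run, and the next one, an MLT1E1A, measured 0.771 ± 0.408 FPKM in the controls. The high level thus began with the first LTR10B1 and extended in the numbering 1 short copy past the last.

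**Figure D2:**
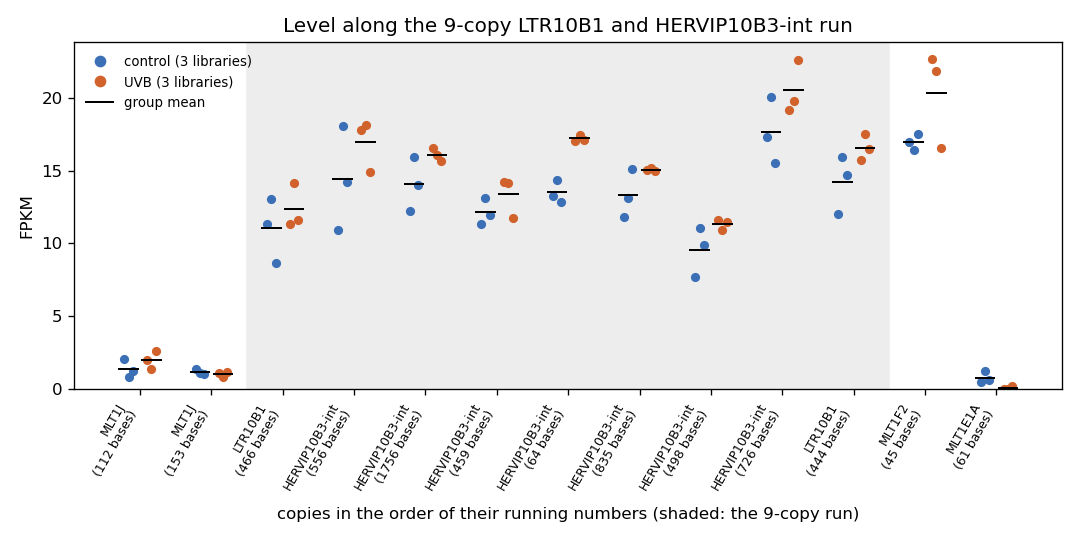
FPKM of the 9 copies of the run (shaded) and of the 2 copies numbered before and after it, in 3 control and 3 UVB libraries (points) with group means (bars). All 9 copies lie between 7.73 and 22.6 FPKM, and the MLT1J copies before the run lie under 3 FPKM.

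None of the 9 pieces passed the copy test, although all 9 had a log2 fold change above 0, between 0.12 and 0.33. Their adjusted p-values ran from 0.344 to 0.791 (limma). In 8 of the 9 the groups overlapped. The exception was copy 364913, a piece of 64 bases with 59, 61 and 67 reads in the controls and 79, 99 and 87 after UVB. The pieces were read from the same libraries and are not 9 replicates. The run as a whole measured 70.6, 89.2 and 78.3 RPM in the controls and 91.1, 92.8 and 89.7 after UVB. The lowest UVB library exceeded the highest control by a small margin, and the difference of the means on the log2 scale was 0.21. The run's share of the reads of all HERVIP10 and LTR10 copies was 52.3% ± 1.80 in the controls and 60.6% ± 1.12 after UVB. The run was chosen for its level, so these values are given with no test.

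The summed level of the LTR and internal copies depended on this run. All LTR10 copies summed to 46.8, 60.2 and 49.3 RPM in the controls and 45.01, 44.6 and 46.98 after UVB, a log2 difference of -0.19 (p = 0.2 in a 2-sided exact permutation test, which cannot go below 0.1 with 3 against 3). All HERVIP10 copies summed to 92.9, 110.4 and 95.3 RPM in the controls and 105.3, 105.7 and 103.7 after UVB, a log2 difference of 0.08 (2-sided exact permutation p = 0.4). The groups overlapped in both sums. With each library left out in turn the LTR10 difference ran from -0.26 to -0.078, the smallest without control replicate 2, and the HERVIP10 difference from 0.032 to 0.16, the smallest without control replicate 1 and the largest without control replicate 2. Scaled to the reads on repeat copies alone, the log2 differences were -0.037 for LTR10 (p = 0.5, exact permutation) and 0.23 for HERVIP10 (p = 0.1, exact permutation). Summed over copies of at least 0.5 FPKM they were -0.13 (p = 0.2, exact permutation) and 0.20 (p = 0.1, exact permutation). Without the copy with the most reads they were -0.25 (p = 0.1, exact permutation) and 0.038 (p = 0.6, exact permutation). Without the 9-copy run, an alternative chosen after seeing the data, HERVIP10 copies measured 32.9, 34.4 and 27.6 RPM in the controls and 26.5, 27.3 and 26.8 after UVB, a log2 difference of -0.23 with no test. LTR10 copies without the run measured 36.2, 47.0 and 38.7 RPM in the controls and 32.8, 30.2 and 34.2 after UVB, a log2 difference of -0.32. The run and the remaining copies thus differed in the sign of the difference. In bulk RNA, fewer cells with a transcript and less of it per cell cannot be told apart.

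**Figure D3:**
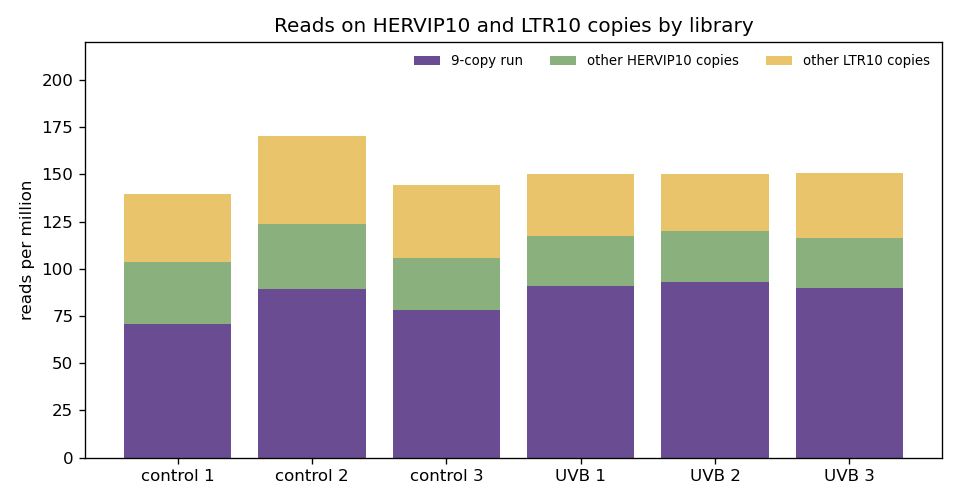
RPM on the 9-copy run, on the other HERVIP10 copies and on the other LTR10 copies, stacked for each of the 6 libraries. The run takes 70.6 to 89.2 in the controls and 89.7 to 92.8 after UVB, and the rest together takes 66.3 to 81.4 in the controls and 57.5 to 61.0 after UVB.

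The group was set against the most alike retroviral groups, each an internal part with its LTRs. HERV9 and LTR12 copies summed to 198.6 ± 25.2 RPM in the controls and 180.6 ± 0.399 after UVB, and HERVH and LTR7 copies to 1615 ± 114.8 and 1474 ± 42.8. The log2 ratio of HERVIP10 and LTR10 copies to HERV9 and LTR12 copies was higher after UVB by 0.12. The ratio to HERVH and LTR7 copies was also higher by 0.12, and that to all other repeat copies by 0.15. In each of these 3 comparisons all UVB libraries lay above all controls, and each had a 2-sided exact permutation p of 0.1, the smallest possible, which is also 0.1 adjusted over the 3. Without the copy with the most reads in each group of names, the difference from HERV9 and LTR12 was 0.054 (2-sided exact permutation p = 0.4). Over copies of at least 0.5 FPKM, the difference from HERVH and LTR7 was 0.24 (2-sided exact permutation p = 0.1). The same ratios without the 9-copy run were lower after UVB, by -0.15, -0.15 and -0.13, given with no test. The 3 comparisons share the numerator and are not independent.

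Much of the LTR10C difference lay in a second run, of 3 LTR10C copies with the numbers 279990, 279991 and 279992. Copy 279991, of 584 bases, measured 8.52, 8.89 and 8.72 FPKM in the controls and 3.52, 4.92 and 5.68 FPKM after UVB, and it had a log2 fold change of -0.79 ± 0.19 (SE, limma adjusted p = 0.126). In the authors' deposited table its log2 fold change was -0.89 with an adjusted p of 0.00789. The short copy 279990, of 65 bases, measured 13.5, 9.29 and 10.6 FPKM in the controls and 4.88, 5.22 and 5.62 FPKM after UVB. It came nearest to the threshold of all HERVIP10 and LTR10 copies (limma adjusted p = 0.0522). Copy 279992, of 523 bases, measured 3.80, 2.25 and 2.73 FPKM in the controls and 1.56, 0.929 and 1.76 FPKM after UVB. In all 3 copies every UVB library was below every control. The 3 copies were read from the same libraries and are not 3 replicates. The identifiers of 279990 and 279992 also share their first number.

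Together these 3 copies took 7.84, 6.97 and 7.21 RPM in the controls and 3.19, 3.70 and 4.601 after UVB, and they held 43.7% ± 6.09 of LTR10C reads in the controls and 33.3% ± 3.84 after UVB. The other LTR10C copies measured 8.84, 12.0 and 7.98 RPM in the controls and 7.17, 8.08 and 7.60 after UVB, and the groups overlapped. Without the 3 copies, an alternative chosen after seeing the data, LTR10C had a log2 fold change of -0.31 and did not pass (limma adjusted p = 0.299). Of the 19 other LTR10C copies with a mean of at least 10 reads, 14 had a lower mean after UVB, against 55.4% of all repeat copies with as many reads. Of all 144 other LTR10C copies with reads, 88 had a lower mean, against 58.1% of all repeat copies with reads.

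The 3 LTR10C copies stand in the numbering next to a long and abundant HERVH-int copy, number 279988, of 5524 bases and flanked by LTR7C copies. HERVH is another class I retrovirus of the genome. The HERVH-int copy measured 15.9, 21.8 and 20.4 FPKM in the controls and 16.4, 21.3 and 20.2 FPKM after UVB, and its groups overlapped (limma log2 fold change 0.00, adjusted p = 0.9995). The LTR10C run had 7.04 ± 1.67 reads for every 100 reads of that copy in the controls and 3.59 ± 0.495 after UVB, with all UVB libraries below all controls. An MER41A copy at a higher number, 279995, had 33, 45 and 28 control reads and 2, 3 and 8 reads after UVB, and it did not pass (limma adjusted p = 0.139). In this copy, in MER41A copy 279994 and in LTR7C copy 279989 every UVB library was also below every control. The last of these had 7, 3 and 5 control reads and 1, 1 and 1 after UVB. The groups of LTR7C copy 279987 and MER4A1 copy 279993 overlapped. The separation was thus not particular to LTR10C in this stretch.

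**Figure D4:**
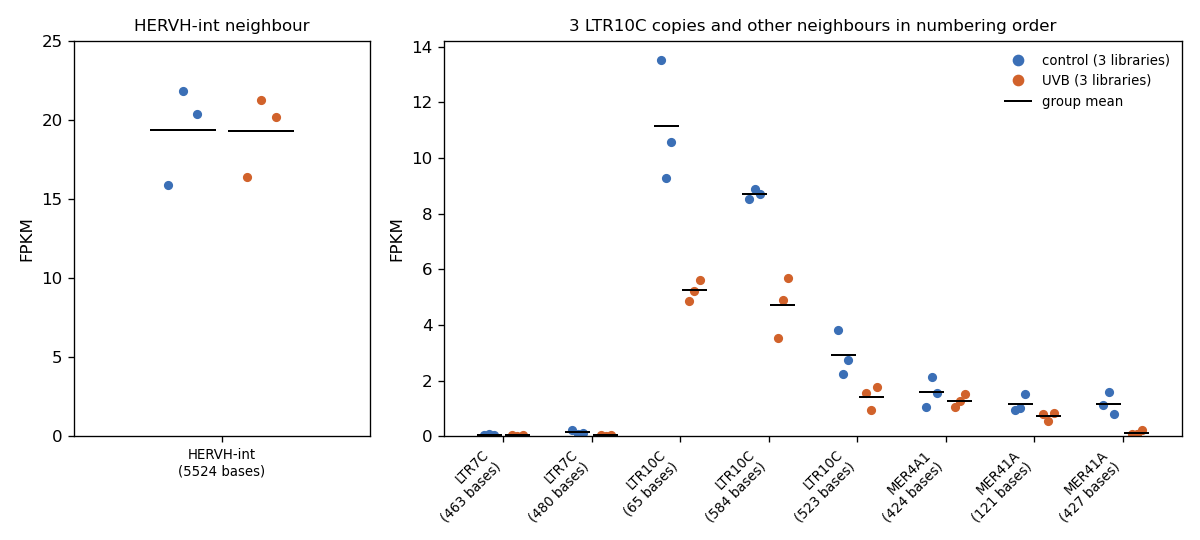
FPKM of the HERVH-int copy (left panel) and of the copies around it in numbering order, among them the 3 LTR10C copies (right panel), for 3 control and 3 UVB libraries (points) with group means (bars). The HERVH-int groups overlap at means of 19.4 and 19.3 FPKM, whereas the 3 LTR10C copies have all UVB points below the control points. So have LTR7C copy 279989 and MER41A copies 279994 and 279995.

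Of the 3296 copies, 53 reached the mean of 0.5 FPKM set for the copy test, 33 LTR10 and 20 HERVIP10 copies. A copy high in 1 group can pass this filter through that group, so counts over the 53 do not speak for all copies. None of the 53 was called by limma or by edgeR, against 0.284% of 7745 copies tested in limma (0.155% higher, 0.129% lower) and 0.245% in edgeR (0.103% higher, 0.142% lower). An unadjusted p under 0.05 was found for 8 copies in limma and 8 in edgeR. In limma these were 15.1% of the 53, 3 with higher and 5 with lower values after UVB, against 10.8% of all copies tested. The 5 lower ones include the 3 LTR10C copies 279990, 279991 and 279992 of one run. A fold change above 0 was found for 27 of the 53 (50.9%) and for 45.1% of all copies tested, with medians of 0.01 and -0.04. Of these 27, 9 are the pieces of the 9-copy run. Pieces of a run are not independent copies, so these shares do not show a difference from the other repeats. Among the 112 copies with a mean of at least 10 reads, 18 (16.1%) had every UVB library below every control, against 9.94% of such copies over all names, and 9 (8.04%) had every UVB library above, against 6.97%.

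**Figure D5:**
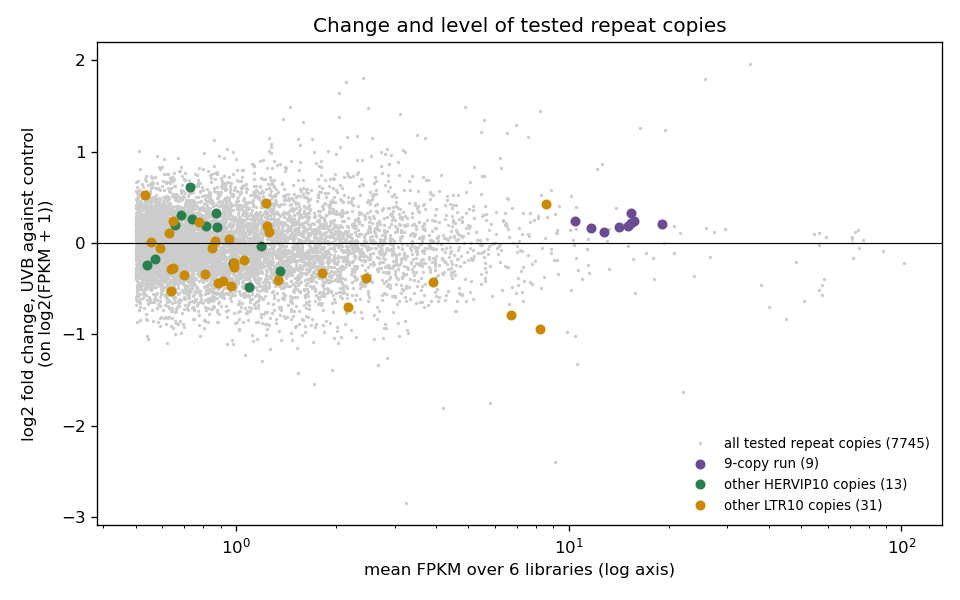
Log2 fold change of UVB against control on log2(FPKM + 1) plotted against mean FPKM (log axis) for all 7745 repeat copies tested (grey) and for the 53 HERVIP10 and LTR10 copies (coloured). The 9-copy run lies above 0 at 10.4 to 19.1 FPKM, and the lowest coloured point is LTR10C copy 279990 at -0.95.

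LTR10A copy 386361 had the most reads of any copy outside the 9-copy run. It measured 1.75, 9.28 and 11.97 FPKM in the controls and 11.5, 4.19 and 12.6 FPKM after UVB. One library of each group was low, the groups overlapped, and the log2 fold change of 0.42 ± 0.50 (SE, limma adjusted p = 0.803) became -0.27 without control replicate 1. It held 46.7% of LTR10A reads, and the summed LTR10A level was lowest in the same library of each group. The 6 HERVIP10B3-int pieces at the numbers just below it measured at most 0.734 FPKM in any library. LTR10A copy 440574 was steadier, at 4.75, 4.30 and 4.82 FPKM in the controls and 3.40, 2.86 and 3.29 FPKM after UVB. Its groups did not overlap, and it did not pass (log2 fold change -0.43, limma adjusted p = 0.431). LTR10C copy 531001 measured 2.06, 2.57 and 1.76 FPKM in the controls and 1.27, 1.11 and 2.15 FPKM after UVB, and its groups overlapped.

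Other runs also had the order of a provirus, at lower levels. In each run described here the opening and closing LTRs again differ in the first number of their identifiers. The run of numbers 733349 to 733353 reads LTR10F, HERVIP10F-int, HERVIP10F-int, HERVIP10FH-int, LTR10F and took 4.07 ± 1.5 RPM in the controls and 6.25 ± 1.28 after UVB, with overlapping groups. Its piece 733351 had 19, 22 and 14 reads in the controls and 38, 60 and 97 after UVB, or 0.353 ± 0.110 and 1.10 ± 0.5001 FPKM. Every UVB library was above every control there, with a log2 fold change of 0.61 ± 0.24 (SE, limma adjusted p = 0.363). That value is on log2(FPKM + 1), where the added 1 shrinks changes at such low levels. On the recovered reads edgeR gave 1.59 (adjusted p = 0.274). Its piece 733352, the longest at 4259 bases, measured 0.971, 0.149 and 0.667 FPKM in the controls and 0.690, 1.00 and 0.941 FPKM after UVB, with overlapping groups. The closing LTR10F, copy 733353, measured 1.16 ± 0.0577 and 1.35 ± 0.127 FPKM. The run of numbers 214696 to 214700, between a pair of LTR10E copies, had lower summed values after UVB, with 3.94 ± 0.864 RPM in the controls and 2.42 ± 0.281 after UVB. Its first internal piece, HERVIP10FH-int copy 214697, measured 1.84, 1.37 and 1.15 FPKM in the controls and 0.746, 0.738 and 0.745 FPKM after UVB (limma adjusted p = 0.427). Its opening LTR10E had a mean of 1.21 FPKM in the controls, and its closing LTR10E, copy 214700, one of 0.0371 FPKM. After UVB these means were 0.622 and 0.0492 FPKM, and the groups overlapped in both. The pieces of this run did not move alike, since copy 214699 had a mean of 0.764 FPKM in the controls and 0.995 FPKM after UVB, also with overlapping groups.

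The authors' deposited table calls 4 of these copies at its adjusted p under 0.05, all with lower values after UVB and none with higher. These are 0.519% of the 771 copies with reads, against 0.0907% lower and 0.0517% higher among all repeat copies to which the table gives an adjusted p. Copy 279991, above, is one. HERVIP10F-int copy 119321 had 12, 24 and 10 reads in the controls and none after UVB, with an adjusted p of 0.00668 in the authors' deposited table. The next number, HERVIP10F-int copy 119322, had no reads in the controls and 2, 2 and 2 after UVB. HERVIP10B3-int copy 362421 had 27, 15 and 60 reads in the controls and 0, 7 and 0 after UVB (adjusted p = 0.0135 in the authors' deposited table). The next number, HERVIP10B3-int copy 362422, had 36, 40 and 39 reads in the controls and 5, 35 and 40 after UVB, with overlapping groups. HERVIP10B3-int copy 470106, of 7584 bases between a pair of LTR10C copies, had 38, 40 and 46 reads in the controls and 13, 5 and 9 after UVB (adjusted p = 0.0387 in the authors' deposited table). The copies 119321, 362421 and 470106 lie under the filter of 0.5 FPKM and were not tested in limma.

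Some copies had reads in 1 group alone. There were 12 copies (1.56% of the 771) with reads in every control and none in any UVB library, against 0.966% of all repeat copies with reads. Another 2 (0.259%) had reads in every UVB library and none in any control, against 0.539%. None of these 14 had a mean above 7.67 reads. LTR10E copy 561645 was the higher of the 2, with 5, 12 and 7 reads after UVB.

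The authors' sheet of 74 selected repeat copies, of 771683 in all, holds 2 of the 3296 copies, both HERVIP10F-int with higher counts after UVB. How the 74 were selected was not examined, so their shared direction is not read as a result. One is 733351, above, with a log2 fold change of 1.65 and an adjusted p of 0.143 in the authors' deposited table. The other is copy 7262, of 7314 bases, with 0, 4 and 10 reads in the controls and 24, 28 and 40 after UVB, and there the authors' deposited table gives a log2 fold change of 2.61 and an adjusted p of 0.212. Neither passed that table's adjusted p at 0.05, and no copy of the 9-copy run is in the sheet.

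Genes of the factors linked to LTR10 in earlier work were read from lists chosen with earlier results of these data known. Over all 14921 genes tested 17% were higher and 11% lower (limma), with a median log2 fold change of 0.04. Of the 10 listed AP-1 subunits 8 were tested, and 4 were higher, none was lower and 4 did not pass, with a median of 0.55. JUN, FOSL1 and JUND had log2 fold changes of 1.74, 0.63 and 0.47. JUNB, the remaining higher subunit, had 0.16 (limma adjusted p = 0.0268) and did not pass with edgeR (adjusted p = 0.119). The higher subunits numbered 3 with edgeR and without UVB replicate 1, 2 or 3, and 5 without control replicate 1.

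Of 17 tested genes that act in silencing of retroviral copies, 3 were higher, 1 was lower and 13 did not pass, with a median of 0.08. Over all genes tested 17% were higher and 11% lower, so higher calls were about as frequent in this list as in general. MPHOSPH8, a subunit of the HUSH silencing complex, rose by a log2 fold change of 0.47, the DNA methyltransferase gene DNMT1 by 0.43, and MORC2, a partner of HUSH, by 0.30 (limma adjusted p = 0.0458). MORC2 did not pass with edgeR (adjusted p = 0.0668), and the higher genes of the list numbered 2 with edgeR and 2 without UVB replicate 1 or 2 or control replicate 1 or 3. CBX3, which encodes a heterochromatin protein and was named as the single lower member, had -0.20, and its call was lost without UVB replicate 1 or 3 and without control replicate 3. TRIM28, the corepressor of KRAB zinc finger proteins, measured 105.1 ± 2.87 and 115.3 ± 4.01 FPKM and did not pass (limma adjusted p = 0.0645), nor did the histone methyltransferase gene SETDB1 (adjusted p = 0.0772). Among 7 genes named in earlier work near LTR10 copies, 6 were tested, and 3 were higher and 1 was lower. The DNA repair gene XRCC4 fell from 4.89 ± 0.722 to 1.16 ± 0.271 FPKM. MEF2D, FGF2 and KDM6A rose by log2 fold changes of 0.41, 0.40 and 0.31. NOS3, which has an LTR10A promoter in placenta, was under the filter at 0.0227 ± 0.0199 FPKM in the controls and 0.126 ± 0.0321 FPKM after UVB. Whether any copy in the table lies near these genes was not tested.

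The line's identity was checked on marker genes. All 10 keratinocyte markers passed the filter of 0.5 FPKM, summing to 534.6 to 698.1 FPKM in the controls and 424.4 to 492.9 FPKM after UVB, although KRT14 stood at 1.02 FPKM in the controls. Of the markers of other cell types, PTPRC, CD3E and LYZ of leukocytes, TYR of melanocytes and KDR and PECAM1 of endothelium were at or near 0 in every library. The sums over 6 melanocyte genes lay at 4.31 to 4.76 FPKM in the controls and 7.54 to 8.03 FPKM after UVB, chiefly MITF. Those over 6 fibroblast genes lay at 0.757 to 1.02 FPKM and 1.77 to 1.95 FPKM, chiefly COL1A1. The 6 leukocyte genes summed to 10.7 to 12.1 FPKM and then 18.8 to 26.4 FPKM, chiefly CD68 and CD14, and the 4 endothelial genes to 4.26 to 5.21 FPKM and then 5.91 to 8.96 FPKM, chiefly CDH5. The part of these in the results above was not tested.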

How the data were processed

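The members, gene lists and tests were chosen with earlier results of these data known. The tools listed per the submitters' processing notes are HISAT2 2.0.5, StringTie and DESeq, with GRCh38 as build. Which program counted the reads, whether by strand, how it treated reads matching several copies, and which repeat annotation it used were not stated. Reads of near-identical copies, and of genes that overlap a copy, can therefore not be told apart. The authors deposited FPKM values for 58735 genes and 771683 repeat copies, and read counts for 74 copies. With those counts the assigned reads per library followed from the FPKM, and 100% of non-zero values gave whole numbers within 0.01. RPM are the recovered reads over the library's assigned reads. The authors deposited also their mean normalised signal, log2 fold changes, test score, and p-values per the file headers.

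Limma 3.58.1 (eBayes with a mean trend, R 4.3.3) tested log2(summed RPM + 0.1) of names with a mean of at least 0.1, and log2(FPKM + 1) of copies and of genes averaging 0.5 FPKM or more. The added 1 shrinks limma fold changes of copies and genes with levels near or under 1 FPKM. A feature was called where its p, adjusted by Benjamini-Hochberg over the whole table, was under 0.05. EdgeR 4.0.16 (quasi-likelihood, TMM factors from genes) on recovered reads was an alternative. Single values were compared by exact permutation in scipy 1.17.1. The limma and edgeR tests were checked on simulated data, with changes larger than the limma fold changes of the names and copies here. The permutation tests were not. The copies named are the 8 with the most reads of each kind, those in the count sheet and those called in the authors' table; other copies and all runs were chosen after their values were seen. Copy coordinates were not used here, so no sequence, host gene or motif was read, and the planned split by annotated genes was not run. One planned gene list is not reported here.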

Additional observations from a re-analysis of the deposited data

How the results depend on the processing

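Leaving out the 9-copy run turned the log2 difference of summed HERVIP10 copies to -0.23, the differences from HERV9 and LTR12, HERVH and LTR7 and all other repeat copies to -0.15, -0.15 and -0.13, and the fold changes of HERVIP10B3-int and LTR10B1 to -0.46 and -0.41. Without the 3-copy LTR10C run the number of lower names among the 12 was 0. Median-ratio scaling, scaling to repeat reads alone (-0.037 for LTR10 and 0.23 for HERVIP10 copies), sums without the highest copy and sums over copies of at least 0.5 FPKM turned neither sum. With each library left out in turn, fold changes ran from -0.28 to 0.20 for LTR10A, from -0.37 to 0.34 for LTR10B2, from -0.20 to 0.053 for LTR10F, from -0.39 to 0.050 for LTR10G, and from -0.27 to 0.86 for LTR10A copy 386361. The lower names then numbered 3 to 23 and the higher 0 to 1, the lower names among the 12 were 0 to 1, called copies were 3 to 9 higher and 4 to 9 lower, higher genes were 1639 to 2074, and the lower members of the silencing list were 0 to 1. EdgeR called 21 names lower. A filter of 10 reads left 6 lower copies. With a pseudocount of 0.1, 1 LTR10C copy, 279990, was called lower. The cause of these shifts was not tested. The replicate block left 0 lower genes in the silencing list. With equal groups the block cannot change a difference of means. The summed LTR10 and HERVIP10 copies thus stayed at log2 differences of -0.19 and 0.08, and LTR10C at -0.56. Only p-values can move, and LTR10C then had a limma adjusted p of 0.00647. The deviations of same-numbered dishes correlated at 0.0481, 0.0221 and 0.0298, too weakly to take the numbers as pairs, although each dish correlated best with its own number, a hint from the data and not from the design. The motif search and the split by annotated genes were not run. Most copies have too few reads for a difference to be detectable at this depth.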
